A study of Mus musculus with 23 samples.

Results

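The fast fiber contractile genes are the genes of the myosin, troponin and actin subunits that make up the force-producing filaments of fast-twitch muscle fibers. They were chosen by gene symbol: Myh1, Myh2, Myh4, Myl1, Mylpf, Tnnt3, Tnni2, Tnnc2, Acta1 and Mybpc2, 10 genes in all. Of the 22690 probe sets on the array, 13 are annotated to 1 of these symbols, and they cover 9 of the 10 genes. Myh1 and Tnni2 have 3 probe sets each and the other genes have 1 each. Mybpc2, which encodes the fast form of myosin-binding protein C, has no probe set listed under its symbol and was not analysed here.

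The study profiled staged degeneration and regeneration of muscle in mice that lack emerin or lamin A/C, proteins of the nuclear envelope that are lost or altered in Emery-Dreifuss muscular dystrophy (EDMD). RNA of gastrocnemius, a calf muscle made up mostly of fast fibers in the mouse, was measured on 23 Affymetrix arrays. Control mice had 2 arrays on day 0, 2 on day 3 and 2 on day 4. Emerin KO (knockout) mice had 2 arrays on day 0, 3 on day 3 and 3 on day 4, and lamin A/C KO mice had 3 arrays on each of these days. Day 3 and day 4 count from an injection whose agent the labels do not name. Day 0 muscle is labelled as not injected for control and emerin KO, whereas the lamin A/C KO label gives 0 days after the injection. The titles tie all 6 control arrays to the lamin A line, so emerin KO and a difference in background between lines cannot be told apart. The labels name no strain, age or targeting allele, and they do not state that the arrays of a group came from separate animals, so p-values measure only the spread between these samples. The genotype labels were checked on the targeted genes. Emd, which encodes emerin, read 153 to 465 on the 8 emerin KO arrays and 587 to 871 on the other 15, and the brightest of the 4 probe sets of Lmna, which encodes lamins A and C, read 53.0 to 109 on the 9 lamin A/C KO arrays and 650 to 5334 on the other 14.

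In a muscle fiber, thick filaments of myosin pull on thin filaments of actin, and the troponin complex on the thin filament lets them do so when calcium is released. Fast fibers use their own isoforms of nearly all of these subunits, and each isoform sets part of the speed of contraction. When muscle is injured, fibers die, macrophages clear them, and satellite cells give rise to new fibers that begin with embryonic and fetal isoforms and later switch to adult fast or slow ones. In whole muscle, fewer fibers and less RNA per fiber cannot be told apart.

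The adult fast myosin heavy chain genes Myh2, Myh1 and Myh4 follow one another on chromosome 11 and encode the heavy chains that define type IIA, IIX and IIB fibers. Their upstream sequences are shown because the 3 genes lie together and were all lower after injury. Each is the 250 bases before the start that RefSeq lists (GRCm38.p6, plus strand, 5′ to 3′): chr11:67170777-67171026 for Myh2, chr11:67199852-67200101 for Myh1 and chr11:67237562-67237811 for Myh4. The capitals mark the longest run of bases that all 3 hold.
Myh2: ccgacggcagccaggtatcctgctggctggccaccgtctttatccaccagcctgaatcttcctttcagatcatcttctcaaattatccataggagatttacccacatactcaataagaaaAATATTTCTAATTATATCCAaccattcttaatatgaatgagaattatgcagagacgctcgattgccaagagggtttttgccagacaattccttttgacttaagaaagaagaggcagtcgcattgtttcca
Myh1: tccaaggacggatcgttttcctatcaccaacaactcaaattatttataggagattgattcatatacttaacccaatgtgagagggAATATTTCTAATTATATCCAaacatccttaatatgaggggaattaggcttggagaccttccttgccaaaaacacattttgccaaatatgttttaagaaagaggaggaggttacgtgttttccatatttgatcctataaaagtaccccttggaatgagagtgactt
Myh4: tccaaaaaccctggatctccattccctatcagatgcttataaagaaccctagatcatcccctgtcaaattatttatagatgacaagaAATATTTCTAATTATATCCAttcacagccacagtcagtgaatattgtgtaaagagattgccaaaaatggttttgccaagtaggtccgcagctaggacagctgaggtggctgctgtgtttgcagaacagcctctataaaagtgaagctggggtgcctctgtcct
The shared run is 20 bases long and begins 130 bases before the start of Myh2, 165 before that of Myh1 and 163 before that of Myh4. Of the 32851 windows of the same length in the RefSeq table, 3 hold it.

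Myl1 encodes the alkali light chain of fast myosin and had the largest called difference between genotypes, so its window is shown too. It is the 250 bases before 1 listed start (GRCm38.p6, chr1:66945057-66945306, minus strand, 5′ to 3′). This window lies inside the RefSeq span of the gene, chr1:66924295-66947932, so the start is an internal one. Whether the probe set reads the transcript from this start was not tested. The capitals mark the window's match to the E-box, CANNTG, the motif bound by MyoD and myogenin.
Myl1: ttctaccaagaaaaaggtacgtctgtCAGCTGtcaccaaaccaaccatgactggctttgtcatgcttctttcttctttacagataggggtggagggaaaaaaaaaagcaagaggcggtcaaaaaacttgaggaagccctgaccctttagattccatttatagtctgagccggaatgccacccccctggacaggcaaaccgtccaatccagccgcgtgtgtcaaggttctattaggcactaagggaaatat
The RefSeq table held such a window for 8 of the 10 genes. On either strand, the E-box was in 6 of the 8 windows against 66.2% of all windows, the letters TATAAA in 4 against 12.4%, and the MCAT element, CATTCC, in 5 against 12.6%. The CArG box, the site of serum response factor, was matched in the windows of Acta1 and Myh4 and in 1.47% of all windows. The MEF2 site was matched in Myh1 and Myh4, where it overlaps a reverse-strand TATAAA, and in 2.92% of all windows, and the MEF3 letters TCAGGTT were in 0 of the 8 and in 3.49% of all windows. A match of letters is a description and not evidence of binding.

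On day 0 these genes were among the brightest on the array in every genotype. Signals are MAS5 intensities rescaled to a trimmed mean of 500 per array, and each gene is read by its brightest probe set. Tnni2 ranked 1 or 2 among all 22690 probe sets on each of the 7 day 0 arrays, and the lowest rank of any of the 9 genes on any of these arrays was 101, for Myl1. After the injection every gene was lower in every genotype. For 8 of the 9 genes, all 16 arrays of days 3 and 4 lay below all 7 arrays of day 0. The same held for 10.6% of the 11164 genes tested. Myl1 was the exception: its highest value after the injection, 16227, passed its lowest value on day 0, 13501.

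**Figure D1:**
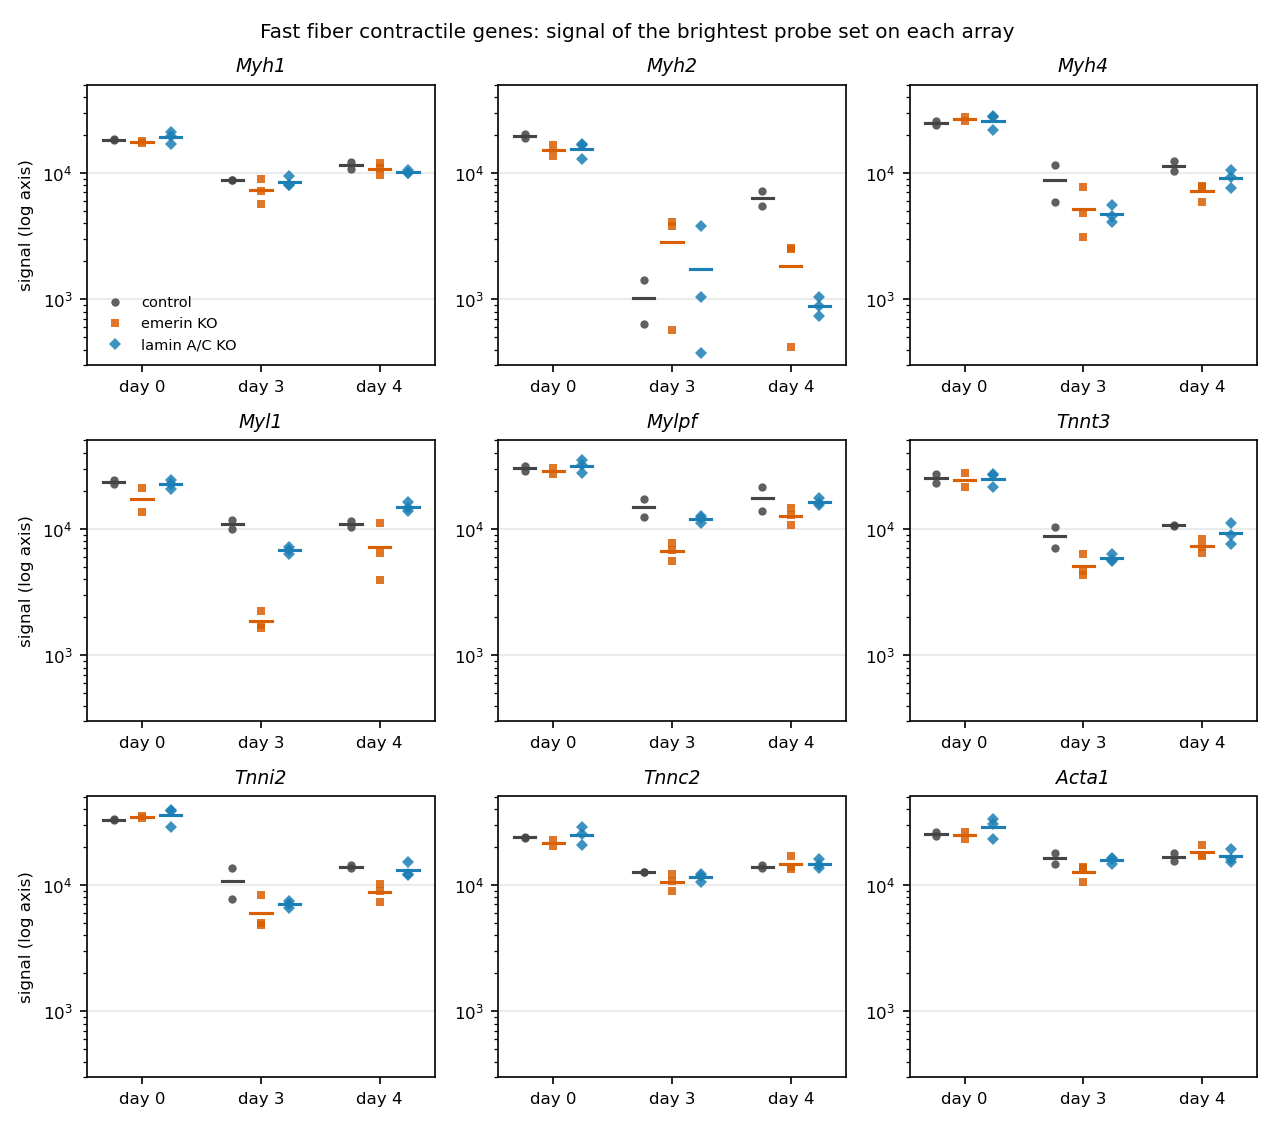
Rescaled MAS5 signal of each gene's brightest probe set on every array, by genotype and day, with 1 point per array on a log axis, with a bar at the mean of each group. Tnni2, Tnnt3, Tnnc2, Mylpf, Acta1 and the 3 myosin heavy chain genes have all 7 day 0 arrays above all 16 later arrays, and Myl1 of emerin KO on day 3 sits between 1644 and 2230.

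Differences between groups are log2 differences of signal + 32, given ± SE, from limma fitted over all 11164 genes, with p-values adjusted by Benjamini-Hochberg within each comparison. A gene is said to have fallen or risen where its adjusted p was under 0.05. From day 0 to day 3, 9 of 9 genes fell in control, where 14.2% of all genes tested fell. In emerin KO 9 of 9 fell against 22.2% of all genes, and in lamin A/C KO 9 of 9 against 19.6%. The median log2 difference over the 9 genes was -1.10 in control, -2.26 in emerin KO and -1.74 in lamin A/C KO, while that over all genes lay between -0.08 and 0.08.

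Myh2, the type IIA heavy chain, had the deepest fall in control and lamin A/C KO. Its control signals were 20117 and 18889 on day 0, 636 and 1417 on day 3, and 7187 and 5435 on day 4. In emerin KO they were 16587 and 13516 on day 0, 4097, 3786 and 568 on day 3, and 2515, 2538 and 420 on day 4. In lamin A/C KO they were 17036, 16601 and 12857 on day 0, 1050, 378 and 3804 on day 3, and 736, 1046 and 893 on day 4. All arrays after the injection lay far below day 0, and 1 array of emerin KO on each later day and 1 of lamin A/C KO on day 3 stood well apart from the others of its group. The day 3 fall was -4.31 ± 0.86 in control (adjusted p = 3.8e-04), -2.83 ± 0.78 in emerin KO (adjusted p = 0.0049) and -3.69 ± 0.70 in lamin A/C KO (adjusted p = 1.7e-04). Myh2 had the largest standard errors of the 9 genes. With the Gapdh signal ratio described further on as a covariate, its emerin KO difference was -2.04 (adjusted p = 0.33).

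Myh4, the type IIB heavy chain, stood at 25793 and 24060 in control on day 0, and at 5843 and 11564 on day 3. Emerin KO went from 25594 and 27558 to 3115, 4799 and 7720, and lamin A/C KO from 27527, 28336 and 21800 to 4067, 5616 and 4561. The day 3 arrays of each genotype lay below its day 0 arrays, and the control array at 11564 was the highest of all day 3 arrays. The falls were -1.60 ± 0.31 in control, -2.44 ± 0.28 in emerin KO and -2.44 ± 0.25 in lamin A/C KO. Myh1, the type IIX heavy chain, fell least of the 3 heavy chain genes: its brightest probe set read 16896 to 21116 on the 7 day 0 arrays and 5662 to 9428 on the 8 day 3 arrays. Its falls were -1.06 ± 0.17, -1.30 ± 0.16 and -1.17 ± 0.14 in control, emerin KO and lamin A/C KO.

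The probe sets of Myh1 did not read alike. The second one, 1427520_a_at, differed on day 3 by -0.47 ± 0.20 in control (adjusted p = 0.083), -0.24 ± 0.18 in emerin KO (adjusted p = 0.30) and -0.46 ± 0.16 in lamin A/C KO (adjusted p = 0.027) in a limma fit over 17771 probe sets. Differences between genotypes in this probe set are not given here. The third, 1452465_at, was dim, at 97.5 to 198 on day 0 and 4.86 to 55.5 afterwards, so against the minimum signal of 100 it was at least 1.69-fold lower on day 3 in control, 1.22-fold in emerin KO and 1.14-fold in lamin A/C KO. The brightest, 1427868_x_at, carries the suffix for probes that can match related transcripts. Its annotation cites the same sequence record as the probe set of Myhas, a long noncoding RNA gene that RefSeq lists between Myh1 and Myh4, and whether its signal includes Myhas transcripts was not tested.

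The 3 probe sets of Tnni2, the fast inhibitory troponin, all fell on day 3 in each genotype. Its brightest set is described with the troponins. The set 1438609_x_at read 7296 to 9085 on day 0 and 1889 to 3799 afterwards. The third, 1438608_at, read 411 to 825 on day 0 and 19.4 to 46.2 after the injection, under the minimum signal of 100. Against that minimum it was at least 7.63-fold lower on day 3 in control, 7.38-fold lower in emerin KO and 5.46-fold lower in lamin A/C KO.

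**Figure D2:**
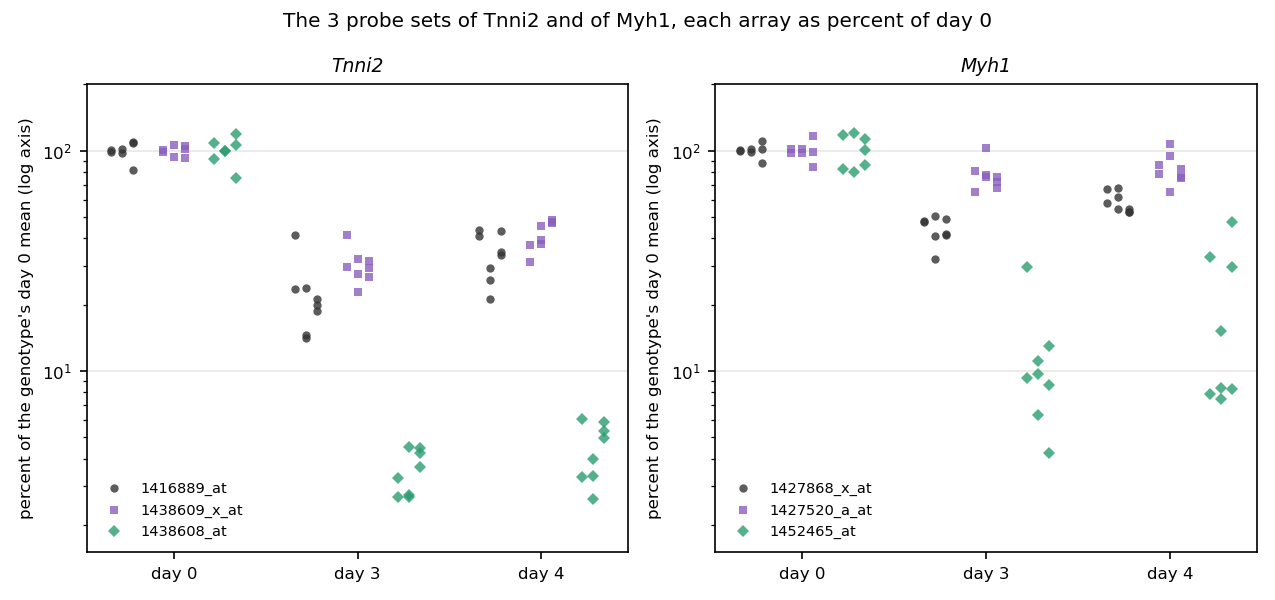
Signal of each probe set of Tnni2 and Myh1, the genes with 3 probe sets, as percent of the genotype's day 0 mean on a log axis; each point is 1 array, and the 3 columns within a probe set are control, emerin KO and lamin A/C KO. The sets 1438608_at and 1452465_at lie under the minimum signal of 100 after the injection, so their low points are bounds and have no order, and of the other sets 1427520_a_at of Myh1, which read 5559 to 9396 there, stayed nearest to day 0.

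Mylpf, the phosphorylatable fast light chain, was at 31458 and 28873 in control on day 0 and at 12370 and 17386 on day 3. In emerin KO it went from 26936 and 30521 to 5617, 6868 and 7683, and in lamin A/C KO from 32286, 34880 and 27811 to 11045, 12684 and 12230. The 3 emerin KO arrays of day 3 were the lowest of all. The falls were -1.04 ± 0.21 in control, -2.10 ± 0.19 in emerin KO and -1.39 ± 0.17 in lamin A/C KO.

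Myl1 signals in control were 22538 and 24323 on day 0, 10026 and 11850 on day 3, and 10287 and 11516 on day 4. In emerin KO they were 20926 and 13501 on day 0, 1644, 2230 and 1732 on day 3, and 6407, 11121 and 3968 on day 4. In lamin A/C KO they were 22514, 24574 and 20735 on day 0, 6774, 7209 and 6304 on day 3, and 13957, 16227 and 14667 on day 4. The day 3 arrays of the 3 genotypes formed separate ranges, with control highest and emerin KO lowest, whereas on day 4 lamin A/C KO was highest. The day 3 fall was -1.10 ± 0.29 in control (adjusted p = 0.0045), -3.16 ± 0.26 in emerin KO (adjusted p = 1.9e-09) and -1.74 ± 0.24 in lamin A/C KO (adjusted p = 2.8e-06). As means, day 3 Myl1 was at 46.7% of day 0 in control, 10.9% in emerin KO and 29.9% in lamin A/C KO.

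The 3 troponin genes encode the fast subunits that bind tropomyosin (Tnnt3), inhibit contraction at rest (Tnni2) and bind calcium (Tnnc2). Tnni2 went from 32322 and 33206 to 7761 and 13515 in control, from 33862 and 35160 to 4851, 5006 and 8261 in emerin KO, and from 38982, 38380 and 28938 to 6617, 7523 and 7051 in lamin A/C KO. No day 3 array came near the day 0 arrays, and 1 emerin KO array, at 8261, reached into the control range. The falls were -1.67 ± 0.24, -2.55 ± 0.22 and -2.31 ± 0.20.

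Tnnt3, whose RefSeq locus is close to Tnni2 on chromosome 7, is its partner in the troponin complex. Its signal went from 23222 and 27398 to 7076 and 10351 in control, from 21325 and 27628 to 4343, 4629 and 6314 in emerin KO, and from 26439, 26995 and 21372 to 5647, 5568 and 6373 in lamin A/C KO. All 6 KO arrays of day 3 were below both control arrays. The falls were -1.56 ± 0.21, -2.26 ± 0.20 and -2.08 ± 0.18.

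Tnnc2 and Acta1, skeletal muscle alpha actin, fell least. Tnnc2 read 20268 to 28628 on the 7 day 0 arrays and 8945 to 12654 on the 8 day 3 arrays, with falls of -0.91 ± 0.17 in control, -1.03 ± 0.15 in emerin KO and -1.10 ± 0.14 in lamin A/C KO. Acta1 read 22915 to 33103 on day 0 and 10626 to 17919 on day 3, with falls of -0.65 ± 0.19 (adjusted p = 0.0080), -0.96 ± 0.17 and -0.87 ± 0.15. Acta1 is made in slow fibers as well as fast ones. The control fall of Acta1 missed the threshold without control day 0 replicate 1 (adjusted p = 0.063) and without control day 3 replicate 1 (adjusted p = 0.11). With quantile normalization, which forces the brightest probe sets of all arrays to the same values, the control day 3 difference was -0.09 for Acta1 (adjusted p = 0.61) and -0.64 for Myl1 (adjusted p = 0.098), and neither passed.

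**Figure D3:**
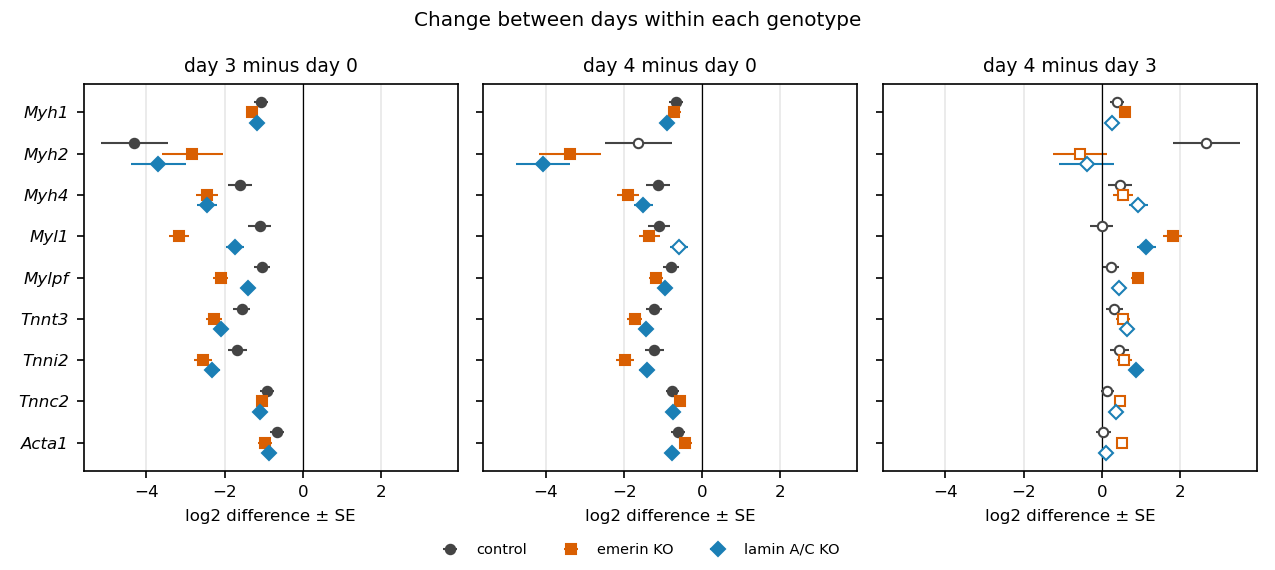
Log2 difference from day 0 to day 3, from day 0 to day 4 and from day 3 to day 4 for each gene in each genotype, with bars of 1 SE; a filled marker has an adjusted p under 0.05 and an open one does not. All markers of the first panel are filled and below 0, and in the third Myl1 of emerin KO, at 1.81, is the highest filled one.

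On day 4 the genes were still below day 0. In control 8 of 9 genes fell between day 0 and day 4, against 14.3% of all genes, in emerin KO 9 of 9 against 20.8%, and in lamin A/C KO 8 of 9 against 18.2%. The gene that missed the threshold in control was Myh2, at -1.64 ± 0.86 (adjusted p = 0.16), and in lamin A/C KO it was Myl1, at -0.60 ± 0.24 (adjusted p = 0.050). Myh2 in the KO muscle had the largest difference, -3.39 ± 0.78 in emerin KO and -4.07 ± 0.70 in lamin A/C KO. Acta1 of emerin KO was at -0.44 ± 0.17 (adjusted p = 0.040) and missed the threshold under 11 settings, among them median scaling (adjusted p = 0.22). With quantile normalization the control count was 1 and the lamin A/C KO count 5, and without control day 4 replicate 1 the control count was 5.

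Among the heavy chains, Myh4 read 10393 and 12318 in control on day 4, 7692, 5915 and 7815 in emerin KO, and 9301, 10481 and 7557 in lamin A/C KO. These means were 45.6%, 26.9% and 35.2% of day 0, and every emerin KO array was below both control arrays. Myh1 was nearer to its start, at 62.6%, 61.2% and 53.2% of day 0, while Myh2 was at 32.4%, 12.1% and 5.75%. The heavy chain of type IIA fibers thus had the lowest share of its day 0 level on day 4 in each genotype.

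Of the light chains, Mylpf read 13796 and 21606 in control on day 4 and was at 58.7% of day 0, against 44.2% in emerin KO and 51.7% in lamin A/C KO. Myl1 was at 46.5%, 41.6% and 66.1% of day 0, the highest share of the 9 genes in lamin A/C KO. Tnni2 read 13511 and 14362 in control, 8929, 10150 and 7364 in emerin KO, and 12238, 15283 and 11891 in lamin A/C KO. By this brightest set the emerin KO arrays of Tnni2 lay below all other arrays of day 4. Its difference from day 0 was -1.23 in control, -1.98 in emerin KO and -1.43 in lamin A/C KO. The set 1438609_x_at of Tnni2 did not show this order. On day 4 it read 3357 and 2813 in control and 3096, 3762 and 3244 in emerin KO, which overlap. Its means were at 34.3% of day 0 in control, 40.8% in emerin KO and 47.6% in lamin A/C KO.

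Tnnt3 had day 4 differences from day 0 of -1.23, -1.73 and -1.44 in control, emerin KO and lamin A/C KO. Tnnc2 read 13276 to 16796 on the 8 arrays of day 4, and its genotype means were at 58.7%, 68.0% and 59.2% of day 0. Acta1 read 15222 to 20745 on these arrays, and its means were at 65.4%, 74.0% and 58.2%. For both genes the arrays of the 3 genotypes overlapped on day 4.

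From day 3 to day 4, part of the fast program rose past the threshold in the KO muscle. The rise was not shown to differ from control, since 0 of 9 genes passed the interaction described further on for either KO. In each genotype 8 of 9 differences were above 0, with medians of 0.32 in control, 0.54 in emerin KO and 0.45 in lamin A/C KO. In control 0 of 9 genes rose, against 0.0448% of all genes. Of the 9, 2 had an unadjusted p under 0.05, as did 531 of the 11164 genes. Myh2 had the largest control difference, 2.67 ± 0.86 (adjusted p = 0.62), and both its day 4 arrays were above both day 3 arrays. In emerin KO 3 of 9 genes rose, against 0.958% of all genes: Myl1 by 1.81 ± 0.24 (adjusted p = 1.1e-04), Mylpf by 0.92 ± 0.17 (adjusted p = 0.0044) and Myh1 by 0.59 ± 0.14 (adjusted p = 0.041). In lamin A/C KO 2 of 9 rose, against 1.29%: Myl1 by 1.14 ± 0.24 (adjusted p = 0.012) and Tnni2 by 0.88 ± 0.20 (adjusted p = 0.021).

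Myl1 rose to 3.50-fold its day 3 level in emerin KO and to 2.20-fold in lamin A/C KO, on the log2(signal + 32) scale. Mylpf of emerin KO moved from 5617, 6868 and 7683 to 10665, 14557 and 12888, with no overlap. Tnni2 of lamin A/C KO moved from 6617, 7523 and 7051 to 12238, 15283 and 11891, also without overlap. Genes that were not called lacked overlap too: it was absent for 6 of 9 genes in emerin KO and 7 of 9 in lamin A/C KO. Myh2 did not share the rise: it differed by -0.56 ± 0.70 in emerin KO and -0.38 ± 0.70 in lamin A/C KO (adjusted p = 0.83 and 0.89). Its arrays of the compared days overlapped in both. The Myh1 rise was not past the threshold under 17 of 35 alternative settings, among them a fit of the compared groups alone (adjusted p = 0.34) and the mean of its probe sets (0.23, adjusted p = 0.60). Both lamin A/C KO rises were lost without lamin A/C KO day 3 replicate 3, without lamin A/C KO day 4 replicate 2, and with the Gapdh signal ratio as a covariate, which gave Myl1 0.75 (adjusted p = 0.10) and Tnni2 0.71 (adjusted p = 0.18).

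The next comparison asks whether muscle without emerin or lamin A/C differs from control at the same stage. The comparisons with control share the control arrays. On day 0, 0 of 9 genes differed between emerin KO and control (3.26% of all genes did), with log2 differences of -0.48 to 0.09, and for lamin A/C KO against control 0 of 9 differed (0.896%), at -0.34 to 0.17. None of the 9 had an unadjusted p under 0.05 in either comparison, while 1776 and 1152 of the 11164 genes did. Between emerin KO and lamin A/C KO 0 of 9 differed on day 0 (6.30% of all genes did). Again 0 of 9 had an unadjusted p under 0.05, against 2082 of the 11164 genes.

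On day 3, 4 of 9 genes were lower in emerin KO than in control, against 8.92% of all genes tested. They were both light chains and 2 of the 3 troponins: Myl1 at -2.54 ± 0.26 (adjusted p = 3.1e-06), Mylpf at -1.13 ± 0.19 (adjusted p = 3.7e-04), Tnni2 at -0.80 ± 0.22 (adjusted p = 0.016) and Tnnt3 at -0.76 ± 0.20 (adjusted p = 0.0098). The arrays of Myl1, Mylpf and Tnnt3 did not overlap between the groups, and those of Tnni2 did. Those of Tnnc2 and Acta1, which were not called, did not overlap either, so a lack of overlap does not mark out the called genes. The share of all genes without overlap is not given here. Myl1 was 5.80-fold lower on the log2(signal + 32) scale, with 1644 to 2230 on the emerin KO arrays against 10026 and 11850 on the control arrays. The other 5 genes did not pass, with differences from -0.75 for Myh4 (adjusted p = 0.075) to 1.10 for Myh2 (adjusted p = 0.40). Without control day 3 replicate 2, Tnnt3 was at -0.49 (adjusted p = 0.23) and Tnni2 at -0.40 (adjusted p = 0.39), and the count was 2.

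Markers of several cell types differed between the same groups on day 3, where 7.38% of all genes were higher and 8.92% lower in emerin KO. The summed signal of 5 satellite cell and myoblast markers was 14771 to 17014 in emerin KO and 7235 to 7835 in control, with 3 of the 5 higher. That of 10 macrophage markers was 41674 to 44487 against 34008 to 34953, with 3 of the 10 higher, and that of 8 fibroblast and matrix markers was 52627 to 62224 against 84868 to 88405, with 4 of the 8 lower. That of 6 slow fiber markers was 10639 to 15658 against 18317 to 23109, with 1 of the 6 lower. None of these day 3 sums overlapped between the groups. No marker of these lists was under a signal of 100 on all arrays of either group. On day 0 the fibroblast and matrix sum was already lower in emerin KO, at 37984 to 59167 against 79515 to 91579. The day 0 satellite cell sum was lower too. On day 3 the sum of 7 muscle fiber markers overlapped, at 30011 to 36968 against 31366 to 44866. The endothelial, adipocyte, Schwann cell and erythroid sums overlapped too, and the neutrophil sum was lower. The emerin KO arrays of day 3 also had high Gapdh ratios, described further on. The part of these cell types in the contractile gene differences was not tested.

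Against lamin A/C KO, emerin KO on day 3 was lower in Myl1 by -1.85 ± 0.24 and in Mylpf by -0.84 ± 0.17 (adjusted p = 5.0e-05 and 0.0032), 2 of 9 genes against 5.99% of all genes. On day 4 Myl1 alone of the 9 was lower, at -1.18 ± 0.24 (adjusted p = 0.0021), where 8.02% of all genes were lower. On day 4, 0 of 9 genes passed between emerin KO and control (5.87% of all genes did). An unadjusted p under 0.05 was found for 6 of the 9 and for 2340 of the 11164 genes. The largest difference was Myh2, at -2.13 ± 0.78 (adjusted p = 0.11), and Myl1 was at -0.73 ± 0.26 (adjusted p = 0.11). Without emerin KO day 4 replicate 2, Myl1 was at -1.10 (adjusted p = 0.0020) and 2 genes passed. That array had a Gapdh signal ratio, described further on, of 1.40, against 2.89 and 5.30 on the emerin KO day 4 arrays kept. Leaving out the arrays above a ratio of 2 instead, which keeps only replicate 2 of emerin KO day 4, turned the direction of the Myl1 difference.

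Lamin A/C KO did not differ from control past the threshold in any of the 9 genes on day 3 (0.0269% of all genes did) or on day 4 (0.0448%). On day 3, 8 of the 9 differences were below 0, from -0.80 to 0.28, with a median of -0.29 against -0.04 over all genes. Of the 9, 4 had an unadjusted p under 0.05, as did 809 of the 11164 genes. On day 4 the largest difference was Myh2, at -2.78 ± 0.78 (adjusted p = 0.61), where the lamin A/C KO arrays, at 736, 1046 and 893, did not overlap with the control arrays, at 7187 and 5435. In a fit of the 2 compared groups alone that Myh2 difference had an adjusted p of 1.6e-04. Myl1 on day 4 was at 0.45 ± 0.26 (adjusted p = 1.0).

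**Figure D4:**
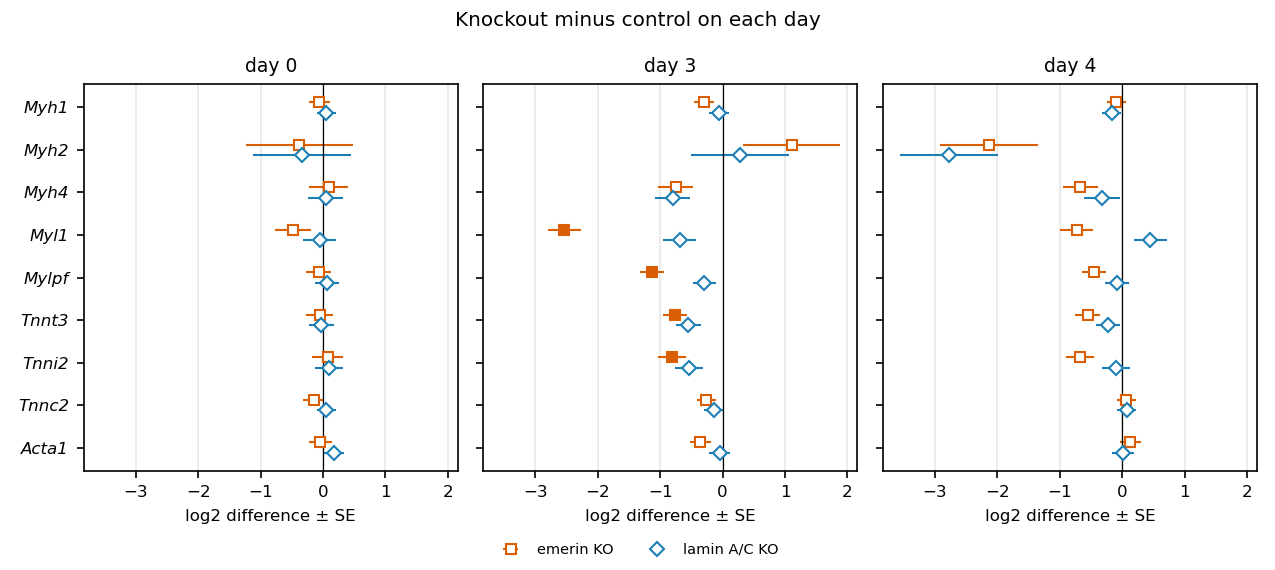
Log2 difference of each KO genotype from control on each day for each gene, with bars of 1 SE; a filled marker has an adjusted p under 0.05 and an open one does not. The filled markers are the 4 of emerin KO on day 3, where Myl1 is at -2.54, and the widest bars are those of Myh2.

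Whether the response itself differed was tested as an interaction. The fall from day 0 to day 3 was larger in emerin KO than in control for Myl1, by -2.06 ± 0.39 (adjusted p = 0.0087), and for Mylpf, by -1.06 ± 0.28 (adjusted p = 0.044), 2 of 9 genes against 1.22% of all genes. Tnni2 was at -0.88 ± 0.33 (adjusted p = 0.16) and did not pass. No gene of the 9 passed for emerin KO from day 0 to day 4 (0.573% of all genes) or day 3 to day 4 (0.0448%). There 1 and 3 of the 9 had an unadjusted p under 0.05, as did 1358 and 787 of the 11164 genes. For lamin A/C KO 0 of 9 passed from day 0 to day 3 (0.170%), day 0 to day 4 (0.206%) or day 3 to day 4 (0.00896%). In these, 1, 1 and 2 of the 9 had an unadjusted p under 0.05, as did 716, 866 and 651 of the 11164 genes. From day 3 to day 4 Myh2 was at -3.23 ± 1.11 in emerin KO relative to control (adjusted p = 0.54) and at -3.06 ± 1.11 in lamin A/C KO (adjusted p = 0.73), and Myl1 was at 1.81 ± 0.37 in emerin KO (adjusted p = 0.078). The Myl1 interaction was at -1.94 without control day 3 replicate 2 (adjusted p = 0.054). The Mylpf interaction missed the threshold under 19 of 35 alternative settings, with adjusted p up to 0.36, among them median scaling, at -0.87 (adjusted p = 0.18).

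RNA quality moved with the emerin KO day 3 and day 4 groups, and to a smaller degree with lamin A/C KO day 3. The array carries Gapdh control probe sets for the 3' and the 5' end of the transcript, and a high 3'/5' ratio is a sign of shortened RNA. The ratio was 3.62 to 6.09 on the 3 emerin KO arrays of day 3 and 0.822 to 1.64 on the 15 arrays of control and lamin A/C KO. On the emerin KO arrays of day 4 it was 2.89, 1.40 and 5.30, and Myl1 on these arrays was 6407, 11121 and 3968. With the ratio as a covariate, emerin KO minus control on day 3 was -1.22 for Myl1 (adjusted p = 0.23), -1.10 for Mylpf (adjusted p = 0.30), -0.43 for Tnnt3 (adjusted p = 0.84) and -0.21 for Tnni2 (adjusted p = 0.95), and 0 of 9 genes passed. The same covariate left 0 of 9 genes past the threshold in emerin KO minus lamin A/C KO on day 3 and day 4 and in the day 3 interaction. Because all 3 emerin KO arrays of day 3 have a high ratio, the ratio and the genotype cannot be told apart on that day.

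**Figure D5:**
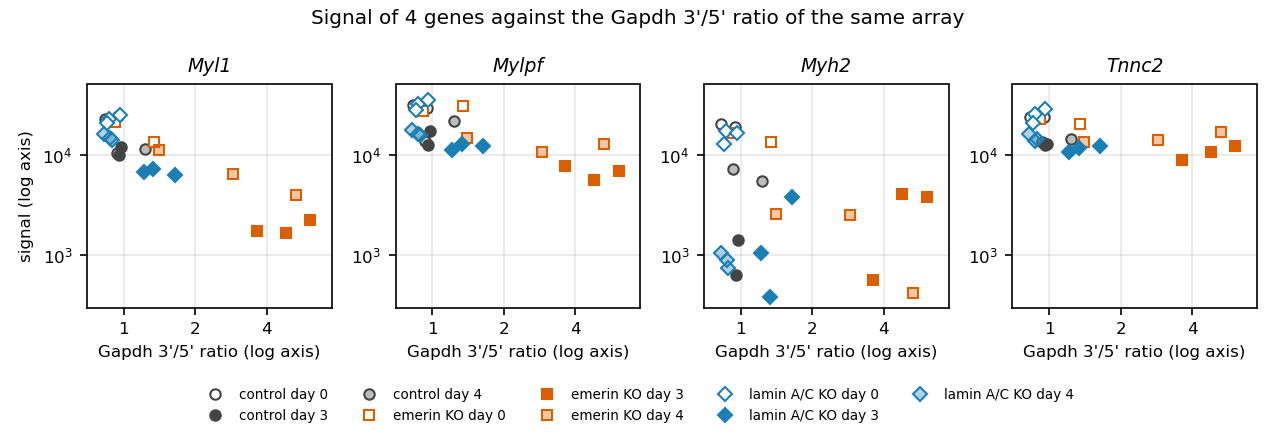
Rescaled signal of Myl1, Mylpf, Myh2 and Tnnc2 on each array against the 3'/5' signal ratio of the Gapdh control probe sets, both on log axes, by genotype; open points are day 0, filled points day 3 and pale points day 4. The 3 emerin KO arrays of day 3 lie at ratios of 3.62 to 6.09, apart from the 15 arrays of the other genotypes at 0.822 to 1.64.

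Markers of cell types moved with the fall as well. The summed signal of 7 muscle fiber markers was 112562 to 129926 on day 0 and 25067 to 59407 afterwards, with 7 of 7 lower on day 3 in each genotype. The summed signal of 10 macrophage markers was 4013 to 6985 on day 0 and 34008 to 44487 afterwards, and 9, 9 and 10 of 10 rose on day 3 in control, emerin KO and lamin A/C KO. Of all genes tested, 20.1%, 23.9% and 23.4% rose and 14.2%, 22.2% and 19.6% fell on day 3 in these genotypes. All 7 fiber and 10 macrophage markers passed a signal of 100 on some array of every group. The part of these cell types in the fall of the contractile genes was not tested.

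The rest of the contractile program gave a wider view. Of 23 other genes of mature fast fibers and the sarcomere, 22 fell on day 3 in control, 22 in emerin KO and 23 in lamin A/C KO. Of all genes, 14.2%, 22.2% and 19.6% fell. The medians of the 23 were -2.09, -2.74 and -2.42 on the log2 scale, below those of the 9 genes. The depth of a fall can vary with the probe set: Tnni2 in control on day 3 was 3.08-fold lower by its brightest set and at least 7.63-fold by 1438608_at. Its part in the lower medians was not tested. The genes of the 23 with the largest falls in control were Ldb3 (-3.59 ± 0.28) and Myoz1 (-3.19 ± 0.25), proteins of the Z-disc, Tcap (-3.39 ± 0.30), the titin cap, and Pvalb (-3.21 ± 0.52), a calcium buffer of fast fibers. Of 11 slow fiber isoforms 7 fell in control, led by Myl3 (-6.01 ± 0.31), Myl2 (-5.81 ± 0.43) and Myh7 (-4.72 ± 0.27), the slow light and heavy chains. The slow genes that rose in control, named after their values were seen, were Tnni1 (0.70), Tpm3 (1.11) and Casq2 (0.70), and Tpm3 turned to -1.04 with the mean of its probe sets. In emerin KO 8 slow isoforms fell and 2 rose, and in lamin A/C KO 6 fell and 1 rose.

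Embryonic and fetal isoforms went the other way: 7 of 8 rose on day 3 in each genotype, against 20.1%, 23.9% and 23.4% of all genes. Chrng, the fetal acetylcholine receptor subunit, was under the minimum signal of 100 on both control arrays of day 0 and read 1562 and 3482 on day 3, so against that minimum it was at least 25.2-fold higher. In control Tnnt2 rose by 4.76 ± 0.23, the embryonic heavy chain Myh3 by 4.35 ± 0.32 and the embryonic light chain Myl4 by 3.83 ± 0.23. The eighth, Actc1, cardiac actin, fell by 0.78 in control, by 0.86 in emerin KO and by 0.90 in lamin A/C KO. In emerin KO on day 3, 5 of 8 were lower than in control, led by Myh8 (-1.81 ± 0.20), the perinatal heavy chain, and Myl4 (-1.30 ± 0.21). Of all genes, 8.92% were lower. These emerin KO arrays had Gapdh ratios of 3.62 to 6.09. The summed signal of the 9 embryonic and fetal isoforms with a probe set was already lower on day 0, at 14009 to 17168 in emerin KO against 21977 to 24870 in control. Of the 23 mature genes, 10 were lower in emerin KO on day 3, led by Smpx (-1.63 ± 0.22) and Myot (-1.37 ± 0.28). The 1 mature gene that was higher was Tcap (0.95 ± 0.27), named after its value was seen. Without control day 3 replicate 2 the count of lower mature genes was 1, and with the Gapdh ratio as a covariate it was 0.

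Of 21 transcription factors and signalling genes that act on the fast program, 3 rose and 9 fell on day 3 in control, 2 rose and 11 fell in emerin KO, and 3 rose and 8 fell in lamin A/C KO. The shares that rose were below the 20.1%, 23.9% and 23.4% of all genes that did. The shares that fell were above the 14.2%, 22.2% and 19.6% of all genes that fell. Myog, which drives myoblast differentiation, rose by 2.78 ± 0.20, 4.97 ± 0.18 and 2.57 ± 0.16 in the 3 genotypes. Mef2c, a partner of the MyoD family, fell by 1.67 in control and 2.81 in emerin KO, and Sox6, a repressor of slow genes, was at -2.13 in control and -2.08 in emerin KO. In lamin A/C KO Sox6 read 547 to 700.2 on day 0 and was under 100 on all 3 arrays of day 3, so it was at least 6.0-fold lower. On day 3 Myog (1.13 ± 0.18) and Myod1 (1.0 ± 0.16) were higher in emerin KO than in control, while Mef2c (-1.08 ± 0.16) and Tbx15 (-1.14 ± 0.26), a factor of glycolytic fibers, were lower. Of 10 cytoplasmic, nonmuscle and smooth muscle counterparts, 4 rose in control, 5 in emerin KO and 4 in lamin A/C KO. The shares of all genes that rose were 20.1%, 23.9% and 23.4%. In control Tpm4, a nonmuscle tropomyosin, rose by 1.31, Myh9, a nonmuscle heavy chain, by 1.23 and Acta2, smooth muscle actin, by 0.97.

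The members differed in how closely they followed the common pattern. Over the 9 group means, the Pearson correlation of a gene with the mean of the other members was 0.995 for Tnnt3 and 0.991 for Tnni2, and lowest for Myh2 (0.821) and Myl1 (0.804). These 9 points share the step from day 0 to the later days, so the values are a description. Outside the set, the 10 genes most like the members' mean were Ltbp4, Mb, Myot, Slc25a4, Eno3, Mettl23, Ckm, Ufsp1, Asb12 and Ldb3, with correlations from 0.995 for Ltbp4 to 0.990 for Ldb3.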

How the data were processed

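Whole-muscle RNA was measured on 23 Affymetrix arrays in 9 groups of genotype and day. The authors deposited 1 MAS5 signal intensity per probe set and array, per the submitters' processing notes, with array trimmed means near 150.0. Signals were scaled so that each array's 2% trimmed mean was 500, and log2(signal + 32) was taken. The deposited values carry no counts, so precision depends on how many arrays a group has. Probe sets were named from GEO's platform annotation: 20380 had 1 gene symbol, 691 several and 1555 none. Each of 12393 genes was read by its brightest probe set, and the 11164 genes that reached a signal of 100 on 2 or more arrays were tested.

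Group means were fitted with limma 3.58.1 (R 4.3.3; intensity trend in eBayes) over all 23 arrays. Differences in 24 comparisons were called at a Benjamini-Hochberg adjusted p under 0.05, and the fit was tested on simulated data. A fold or log2 difference is on the log2(signal + 32) scale, which understates changes of dim genes. Promoter windows came from RefSeq (GRCm38.p6). Tables and plots used Python 3.11.15 with pandas 2.3.3, numpy 2.4.6 and matplotlib 3.10.9.

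The members, gene lists and alternatives were chosen with earlier results of these data known. All members were described, and from each other list up to 4 genes with the largest called difference. Alternatives covered scaling, pseudocount, filter, choice of probe set, intensity trend, a replicate block, the groups in the fit, the Gapdh ratio, and leaving out each array. No 2 arrays held identical values. Whether the replicate numbers in the titles pair the arrays was not settled, and they were used as a block only in an alternative setting.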

Additional observations from a re-analysis of the deposited data

Results flagged for a closer look

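For Myl1 and Mylpf, the fast myosin light chains, the fall from day 0 to day 3 differed between emerin KO and control by a test of the difference itself, the interaction in limma. The interaction was -2.06 for Myl1 and -1.06 for Mylpf on the log2 scale, with a larger fall in emerin KO. The Myl1 call was lost under 2 of 35 alternative settings and the Mylpf call (adjusted p = 0.044) under 19 of 35, with adjusted p up to 0.36. The 3 emerin KO arrays of day 3 were also those with Gapdh 3'/5' ratios of 3.62 to 6.09, and with this ratio as a covariate the Myl1 interaction was -0.92 (adjusted p = 0.43). Dixon's test for a single array that stands apart was not run, since each group has 2 or 3 arrays.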

How the results depend on the processing

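Of 66 called differences of the 9 genes, 37 kept their call and direction under each of the 36 alternative settings that gave a value, and the count of called genes was within 1.5 times in 12 of 24 comparisons. Emerin KO day 3 comparisons have no value without the arrays with a Gapdh ratio above 2, since all 3 arrays are above it. Where a cause is not named, the cause was not tested.

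With quantile normalization the count of called genes was 1 in control and 5 in lamin A/C KO for day 4 minus day 0, 5 in emerin KO for day 4 minus day 3, and 2 for emerin KO minus control on day 4. With median scaling, all genes unfiltered, a gene's probe sets averaged or no intensity trend, 1 gene passed the emerin KO interaction of day 3 minus day 0, and with no intensity trend 1 gene rose from day 3 to day 4 in lamin A/C KO. With only the compared groups fitted, the counts were 1 for emerin KO and 5 for lamin A/C KO in day 4 minus day 3, 2 for emerin KO minus control on day 3, 1 on day 4 for the difference of lamin A/C KO from control, 2 for emerin KO minus lamin A/C KO on day 4, 1 for the emerin KO interaction of day 3 minus day 0 and 1 for the day 4 minus day 0 interaction of lamin A/C KO. With the Gapdh ratio as a covariate 0 genes passed in lamin A/C KO day 4 minus day 3, in emerin KO minus control on day 3, in emerin KO minus lamin A/C KO on days 3 and 4 and in the emerin KO interaction of day 3 minus day 0. Without the arrays above a ratio of 2 the count was 4 for lamin A/C KO day 4 minus day 3. That setting keeps only replicate 2 of emerin KO day 4, so no count is given for the comparisons of that group. Emerin KO minus lamin A/C KO on day 4 gave 2 with a pseudocount of 100 or a fit over all probe sets.

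Whether the replicate numbers pair the arrays was not settled. Over 82 pairs with the same number the deviations correlated from -0.30 to 0.39 (median 0.024), with 26 pairs over 0.1. Over 152 pairs with other numbers they correlated from -0.46 to 0.46 (median -0.019), with 28 pairs over 0.1. With the replicate block the count was 2 for emerin KO minus lamin A/C KO on day 4 and 1 for the emerin KO interaction of day 4 minus day 3.

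Leaving out 1 array at a time gave 5 to 8 called genes in control day 4 minus day 0, 0 to 4 in lamin A/C KO day 4 minus day 3, 2 to 5 in emerin KO minus control on day 3, 0 to 2 on day 4, 1 to 2 in emerin KO minus lamin A/C KO on day 4, 0 to 3 in the emerin KO interaction of day 3 minus day 0 and 0 to 1 in that of day 4 minus day 3.

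Directions turned for Acta1 in control day 4 minus day 0 with quantile normalization (0.038). Myh2 from day 3 to day 4 turned in emerin KO without day 4 replicate 3 (0.27, lowest without any 1 array -1.47). It also turned in lamin A/C KO without day 3 replicate 3 (0.46, lowest -1.15). Myl1 in emerin KO minus control on day 4 turned with the Gapdh covariate (0.066). It was at 0.031 without the arrays above a ratio of 2, which keeps only replicate 2 of emerin KO day 4. Tpm3, with the mean of all its probe sets, was at -1.04 in control, -0.49 in emerin KO and -0.61 in lamin A/C KO for day 3 minus day 0. Median scaling moved the median of all genes by over 0.1 in 6 comparisons, by -0.12 to 0.18.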
